A study of Mus musculus with 6 samples.

Results

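Metallothionein and zinc transport genes were followed across 6 one-colour Affymetrix arrays of mouse macrophages, 1 array per sample. The 7 genes were the metallothioneins Mt1 and Mt2, the metal-sensing transcription factor Mtf1, the zinc importers Slc39a14, Slc39a8 and Slc39a10, and the zinc exporter Slc30a1, chosen by name from the 18193 genes that have a probe set of their own on the array. They hold 18 probe sets that list no other gene, and 0 probe sets list a member together with another gene. The induction pair holds wild-type macrophages, 1 array with medium and 1 with lipopolysaccharide (LPS, an outer membrane glycolipid of Gram-negative bacteria), which per the series description define LPS-inducible genes. The Trib1-line arrays hold LPS-treated macrophages labelled wild type (n = 2) or Trib1 knockout (n = 2), and serve to compare the genotypes. The labels put a number, 1 or 2, before the genotype, so 1 wild type and 1 knockout share each number. Trib1 encodes a pseudokinase known for marking C/EBP factors for degradation. Neither the tissue that supplied the cells nor the LPS dose, time, strain, age or deleted part of Trib1 is in the labels, nor whether the 2 arrays of each genotype represent different mice, so each p-value covers the spread between these arrays, which may be technical.

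Each array was rescaled to a common mean, taken without the lowest and highest 2% of values, and values under a floor of 29.9 scaled units (the 40th percentile of all 6 arrays) were treated as not well above background. The deposited induction pair had been scaled to a trimmed mean of 500, against 95.5 to 107 for the Trib1-line arrays, and each array had 57.9% to 63.0% of its probe sets above the floor. On the Trib1-line arrays numbered 2 this share was 63.0% (wild type) and 62.8% (knockout label), and on those numbered 1 it was 59.2% and 58.6%. The induction pair also stood apart by sex-linked transcripts. Xist on probe set 1427262_at measured 1616 and 980.5 on the induction pair and 2.0 to 5.6 on the Trib1-line arrays, and Eif2s3y on 1417210_at measured 0.3 and 4.7 against 218.8 to 534.2. A difference between an array of the induction pair and one of the Trib1 line therefore cannot be told apart from sex, line or deposited scale. Trib1 itself was under the floor on both wild-type Trib1-line arrays on 1424880_at (17.9 and 17.5, against 88.1 and 20.9 on knockout-labelled arrays), and measured 383.5 and 189.3 on the induction pair. On its second set, 1424881_at, wild type gave 20.2 and 63.0, knockout-labelled arrays 32.3 and 38.7, and the induction pair 37.1 and 29.3. Its probe sets are not placed relative to the deletion here, so they check no label and the arrays are called knockout-labelled. All 7 macrophage marker genes measured, among them Cd68, Lyz2 and Adgre1, were above the floor on all 6 arrays.

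Metallothioneins are small cysteine-rich proteins that bind zinc and copper. When free zinc rises, the zinc finger protein MTF1 binds metal response elements and switches on Mt1, Mt2 and Slc30a1, whose product exports zinc from the cytosol. Proteins of the SLC39 (ZIP) family carry zinc into the cytosol, and those of the SLC30 (ZnT) family carry it out or into organelles. In inflammation, metallothionein genes and Slc39a14 are known as acute-phase genes that respond to cytokines such as interleukin 6, and zinc supply shapes the defence of macrophages against microbes.

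The core of the metal response element ties Mt1, Mt2 and Slc30a1 to Mtf1, so the bases before their start sites are shown first. RefSeq promoter windows (build GRCm38.p6, 250 bases before to 50 bases past a start site) were held for 6 of the 7 genes, 8 windows in all; Slc39a14 had no entry. The motif was searched as TGCACNC or TGCGCNC on both strands. The 250 bases before the start of the metallothionein genes and of the exporter gene are given 5′ to 3′ on the gene's strand, with matches in capitals.
Mt2, chr8:94172368-94172617, + strand: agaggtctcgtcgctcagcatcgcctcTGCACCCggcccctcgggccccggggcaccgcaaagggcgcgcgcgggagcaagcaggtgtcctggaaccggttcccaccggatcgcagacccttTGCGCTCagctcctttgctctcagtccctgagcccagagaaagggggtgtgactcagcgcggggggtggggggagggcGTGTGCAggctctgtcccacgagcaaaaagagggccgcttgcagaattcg
Mt1, chr8:94178839-94179088, + strand: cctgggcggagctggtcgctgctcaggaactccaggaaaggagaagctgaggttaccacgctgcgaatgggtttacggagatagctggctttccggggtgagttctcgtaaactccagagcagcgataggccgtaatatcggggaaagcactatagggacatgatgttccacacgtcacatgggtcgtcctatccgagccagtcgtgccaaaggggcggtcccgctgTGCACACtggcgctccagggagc
Slc30a1, chr1:191906531-191906780, + strand: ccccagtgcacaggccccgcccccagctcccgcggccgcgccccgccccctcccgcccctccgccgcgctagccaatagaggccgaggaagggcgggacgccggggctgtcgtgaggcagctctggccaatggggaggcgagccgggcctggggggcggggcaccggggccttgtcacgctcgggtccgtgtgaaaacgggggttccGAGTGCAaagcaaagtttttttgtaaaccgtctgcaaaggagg
In the full window of 300 bases Mt2 held 4 matches, Mt1 held 3 and Slc30a1 held 2. Of these, 3 of Mt2, 1 of Mt1 and 1 of Slc30a1 lie before the start site and are the ones in capitals above. One of the windows of Slc39a8 held 1 match, and no match was found in the windows of Mtf1 or Slc39a10. Of 32851 promoter windows of the same length, 25.7% held at least 1 match, 7.11% at least 2, 1.97% at least 3 and 0.517% at least 4. A match is a description of the letters and not a binding site. The windows of Mt2 and Slc30a1 are also rich in G and C (67.6% and 71.2% before the start, against a median of 52.4%), as are those of Mtf1 (67.2%) and 1 of Slc39a10 (71.6%), which held no match. Mt2 and Mt1 are neighbours, with 0 annotated genes that start between them.

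Both metallothionein transcripts were abundant on every array and highest on the induction-pair LPS array. Mt1 on 1422557_s_at had a scaled intensity of 7995 in medium and 18329 after LPS in the induction pair, a 2.29-fold difference. The wild-type Trib1-line arrays gave 7104 and 6502, both a little under medium. On the knockout-labelled arrays it measured 8060 and 5606. The 5 arrays other than the LPS array thus lay within 5606 to 8060, and the LPS array stood alone above them. Probe set names ending in _s_at are given by the manufacturer to sets that can match more than 1 transcript, so signal from Mt2 on this set cannot be told apart from signal of Mt1. The second Mt1 probe set, 1451612_at, stayed between 20.1 and 35.6, close to the floor, and was above it on 3 of 6 arrays.

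Mt2 on 1428942_at measured 6364 in medium and 15913 after LPS in the induction pair (2.50-fold). Wild type of the Trib1 line gave 10523 and 11052, which is 1.65-fold and 1.74-fold above medium, and 12046 and 9961 on the knockout-labelled arrays. All 5 LPS arrays lay above the medium array for Mt2, whereas for Mt1 only the induction-pair LPS array and, narrowly, knockout-labelled 1 did (with quantile normalization knockout-labelled 1 lay under medium). With quantile normalization the induction pair's log2 ratio was 0.89 for Mt1 and 1.00 for Mt2, against 1.20 and 1.32 in the scaled values.

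**Figure D1:**
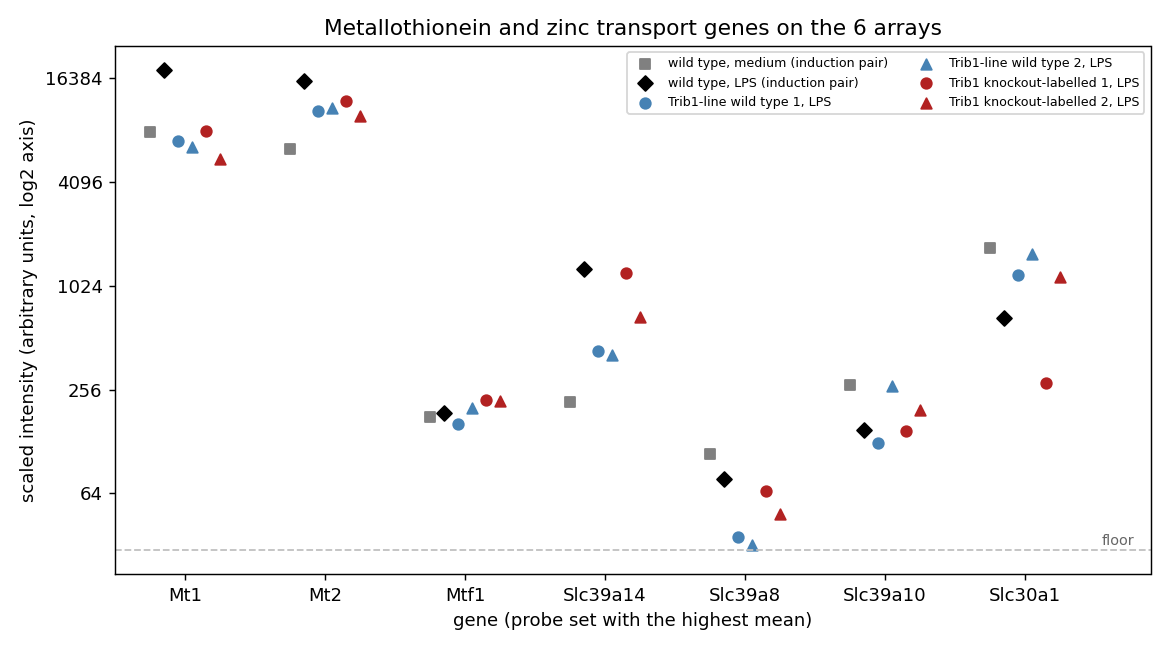
Scaled intensity (log2 axis, arbitrary units) of the leading probe set of each of the 7 genes on each of the 6 arrays; each symbol is 1 array and the dashed line is the floor of 29.9. Mt1 and Mt2 are highest on the induction-pair LPS array (18329 and 15913), and Slc39a14 is lowest in medium (216.9).

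Mtf1, the regulator of the metallothionein genes, varied less on its leading probe set than any other member. This set, 1418333_at, measured 176.6 in medium and 187.5 after LPS in the induction pair. Wild type of the Trib1 line gave 161.1 and 201.0, and knockout-labelled arrays gave 223.0 and 220.0. The highest array was 1.38-fold above the lowest. Probe sets 1428979_at (119.0 to 180.4) and 1429170_a_at (76.3 to 183.2) were above the floor on all arrays. The first of these was highest in medium and the second on knockout-labelled 1, so the Mtf1 probe sets did not order the arrays alike. Of the remaining sets, 1452990_at was above the floor only on the induction-pair LPS array (42.6), and 1440414_at on none.

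The importer gene Slc39a14 encodes ZIP14, which carries zinc, iron and manganese into cells, and showed the largest LPS ratio of the 7 genes. On its leading probe set, 1427035_at, it rose from 216.9 in medium to 1280 after LPS in the induction pair (5.90-fold). Wild type of the Trib1 line gave 427.5 and 406.9, 1.97-fold and 1.88-fold above medium, and 1216 and 674.2 on the knockout-labelled arrays. The medium array was lowest and the wild-type Trib1-line arrays came next, far below the induction-pair LPS array. On 1438490_at Slc39a14 was under the floor in medium and rose to 148.3 after LPS, at least 4.96-fold higher. That set measured 80.7 and 98.6 on wild-type and 215.8 and 126.0 on knockout-labelled Trib1-line arrays. On 1425649_at the values were 162.5 in medium, 378.0 after LPS (2.33-fold), 264.4 and 245.4 on wild-type and 521.3 and 398.0 on knockout-labelled arrays. On all 3 of these probe sets medium was lowest of the 6 arrays. The fourth, 1457770_at, was above the floor only on the induction-pair LPS array (38.6).

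The other importers were not higher after LPS in the induction pair. Slc39a8 encodes ZIP8, an importer of zinc and manganese found on the plasma membrane and lysosomes of immune cells. Its probe set 1416832_at measured 107.4 in medium and 77.5 after LPS in the induction pair (1.39-fold lower). The wild-type Trib1-line arrays, at 35.8 and 32.0, were both more than 3-fold under medium, and the knockout-labelled arrays measured 66.4 and 48.3. Medium was the highest array for Slc39a8, and the second probe set, 1448482_at (18.3 to 44.3), was also highest in medium. Slc39a10 encodes ZIP10, a plasma membrane importer. On 1433751_at it measured 272.9 in medium and 149.1 after LPS (1.83-fold lower), 124.7 and 268.8 on wild-type and 146.8 and 194.3 on knockout-labelled arrays. On 1439041_at it measured 143.5 in medium and 69.9 after LPS (2.05-fold lower), 90.1 and 129.2 on wild-type and 73.5 and 130.9 on knockout-labelled arrays. Both Slc39a10 probe sets were highest in medium in the scaled values (with quantile normalization wild type 2 passed medium on 1433751_at), and on both the Trib1-line arrays numbered 2 lay above those numbered 1.

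The exporter gene Slc30a1 did not follow the metallothioneins. On 1436164_at Slc30a1 measured 1699 in medium and 669.1 after LPS in the induction pair (2.54-fold lower). It measured 1175 and 1566 on wild-type and 278.5 and 1147 on knockout-labelled Trib1-line arrays. Medium was the highest of the 6 arrays and knockout-labelled 1 the lowest. The second probe set, 1422786_at, spanned 329.3 to 640.1 and measured 479.1 in medium and 372.3 after LPS (1.29-fold lower). It was highest on knockout-labelled 2 and lowest on knockout-labelled 1, so the Slc30a1 probe sets shared their lowest array and not their highest.

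By the rule of at least 4-fold in the induction pair, with the higher value above the floor, 2 of 17 member probe sets measured were induced and 0 repressed. Both are Slc39a14 sets. Over all 29115 probe sets measured, 0.986% were induced and 0.598% repressed by the same rule. A rule of 2-fold adds the third Slc39a14 set, Mt1 and Mt2 above medium and 1 set each of Slc39a10 and Slc30a1 below it, or 5 higher and 2 lower, beside 5.02% and 6.29% of all probe sets. The median log2 ratio was 0.22 over the member sets and -0.09 over all sets measured. Slc39a14 and Mtf1 supply several of the member sets, so that median is not one over genes. With 1 array per condition there is no test of this comparison. With either wild-type Trib1-line array in place of the LPS array, 0 member sets reached 4-fold.

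Of 14 member probe sets that exceeded the floor on 2 or more of the 4 wild-type arrays, 4 lay above medium on all 3 wild-type LPS arrays (Mt2 and 3 sets of Slc39a14), beside 25.5% of all 28430 sets. A further 6 lay below medium on all 3 (1 set of Mtf1, both of Slc39a8, both of Slc39a10 and 1 of Slc30a1), beside 29.2%. Limma, a linear model that shares the spread across probe sets, called 0 of the 14 between the medium array and these 3 arrays (Benjamini-Hochberg adjusted p under 0.05). The same fit called 0.158% of all sets higher and 0.0106% lower. In it the lone medium array is assumed to vary like the LPS arrays. The 3 LPS arrays also span both lines, so sex, line and deposited scale enter their spread. Slc39a14 on 1438490_at was under the floor in medium and passed the filter through the LPS arrays alone. Its log2 difference was at least 1.82, and no p is given for it, since the filter favours a place above medium. Among the other member sets the smallest p was that of Mt2 (log2 0.95, SE 0.35, limma adjusted p = 0.539). Mt2 was also the only one of these with an unadjusted p under 0.05 (0.0309 by limma), beside 3.65% of all sets higher at that level.

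**Figure D2:**
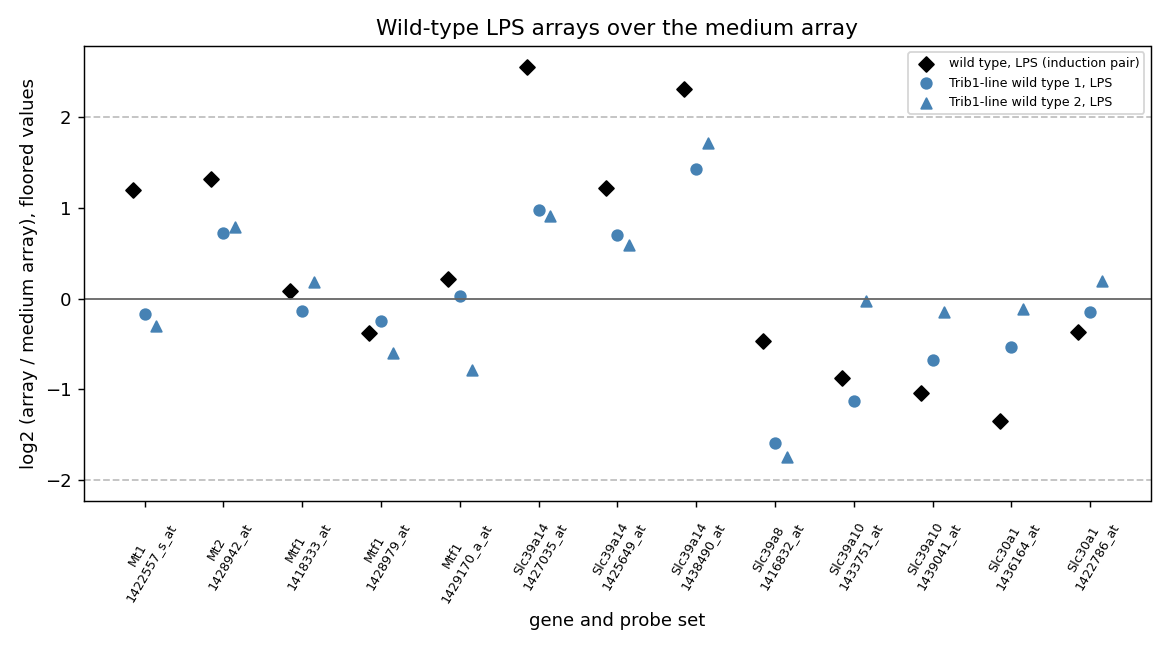
Log2 ratio of each of the 3 wild-type LPS arrays over the medium array for the 13 member probe sets that exceed the floor on 5 or more arrays; points are single arrays and the dashed lines mark 4-fold. Slc39a14 on 1427035_at (2.56) and 1438490_at (2.31, a lower bound) pass 4-fold on the induction-pair LPS array, and no set does on the Trib1-line arrays.

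Between the genotypes, Slc39a14 stood higher on both knockout-labelled arrays than on both wild-type arrays on each of its 3 probe sets measured. On 1427035_at the mean was 417.2 ± 14.5 (SD, n = 2) on wild-type arrays and 945.3 ± 383.4 (SD, n = 2) on knockout-labelled arrays, a log2 difference of 1.12 (2.17-fold, SE 0.31, 95% interval 0.34 to 1.90). It did not pass the test over all probe sets (limma, Benjamini-Hochberg adjusted p = 0.912; unadjusted 0.0131). On 1425649_at the log2 difference was 0.84 (SE 0.25, 95% interval 0.22 to 1.45; limma adjusted p = 0.940, unadjusted 0.0161) and on 1438490_at it was 0.89 (SE 0.40, interval -0.11 to 1.88; adjusted p = 0.999). The probe sets measure 1 gene and are not independent. The wild-type arrays agreed within 1.05-fold on 1427035_at, while the knockout-labelled arrays differed 1.80-fold from each other. Without knockout-labelled 1 the log2 difference on 1427035_at was 0.69, and without knockout-labelled 2 it was 1.54. The wild-type induction-pair LPS array, at 1280, lay above both knockout-labelled arrays on that set, and adding it as a wild type gave a log2 difference of 0.58 (limma adjusted p = 0.999).

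Slc39a8 was also higher on both knockout-labelled arrays, at 66.4 and 48.3 against 35.8 and 32.0 (log2 0.74, SE 0.32, 95% interval -0.04 to 1.53; limma adjusted p = 0.999). Here the wild-type values lie just above the floor, and in the induction pair the wild-type LPS array, at 77.5, again lay above both knockout-labelled arrays. The second Slc39a8 set had both wild-type arrays under the floor (25.5 and 18.3) and was not tested. Slc30a1 on 1436164_at was lower on the knockout-labelled arrays (278.5 and 1147) than on wild type (1175 and 1566). Its log2 difference was -1.26 (SE 0.64, 95% interval -2.86 to 0.33; limma adjusted p = 0.999). The higher knockout-labelled value and the lower wild-type value lay close together, and knockout-labelled 1 sets the size. With quantile normalization the groups overlapped, at 1160 on knockout-labelled 2 and 1158 on wild type 1. Without knockout-labelled 1 the log2 difference was -0.24, and without knockout-labelled 2 it was -2.28 with a limma adjusted p of 0.0141, the one member result to pass in any alternative. The other Slc30a1 set gave -0.09 (SE 0.36).

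No genotype difference was detected for the metallothioneins. Mt1 measured a mean of 6803 ± 426 on wild-type and 6833 ± 1735 on knockout-labelled arrays (SD, n = 2 each), a log2 difference of -0.02 (SE 0.22, 95% interval -0.57 to 0.53; limma adjusted p = 0.999). Mt2 measured 10788 ± 374 and 11003 ± 1475 (SD, n = 2 each), a log2 difference of 0.02 (SE 0.18, interval -0.42 to 0.46; limma adjusted p = 0.999). With the induction-pair LPS array as an added wild type, the log2 difference was -0.49 (SE 0.46) for Mt1 and -0.16 (SE 0.25) for Mt2, with a limma adjusted p of 0.999 for both. The intervals bound the difference and do not show that the genotypes are alike. Mtf1 gave log2 differences of 0.30 (SE 0.28), 0.25 (SE 0.31) and 0.53 (SE 0.44) on its 3 sets tested. Slc39a10 gave -0.12 (SE 0.45) and -0.14 (SE 0.44), with overlapping groups on both.

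Of the 14 member probe sets tested, limma called 0 at a Benjamini-Hochberg adjusted p under 0.05, beside 0% of all 29078 tested. At an unadjusted p under 0.05, 2 were higher (both Slc39a14) and 0 lower, beside 2.28% and 2.71% of all sets. Both knockout-labelled arrays lay above both wild-type arrays for 7 of the 14 and below for 1, beside 15.4% and 16.3% of all sets. The 7 are 3 sets of Slc39a14, 2 of Mtf1, 1 of Slc39a8 and 1 of Mt1. The Mt1 set, 1451612_at, passed the filter through its knockout-labelled arrays alone (35.0 and 34.2, with 20.1 and 26.4 on wild type), so its place among them is fixed by the filter. Sets of 1 gene are not independent, and counted by the leading set of each of the 7 genes, 3 lay above and 1 below. The median log2 difference was 0.23 over the 14 and -0.01 over all sets tested. Slc39a14 and Mtf1 supply 3 sets each to the 14, and the Mt1 set fixed by the filter is among them. That median is therefore not one over genes. On the leading sets the differences ran from -1.26 for Slc30a1 to 1.12 for Slc39a14, with Mt1 at -0.02 and Mt2 at 0.02. With 2 arrays per genotype, the smallest two-sided p that an exact permutation test allows is 0.333.

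**Figure D3:**
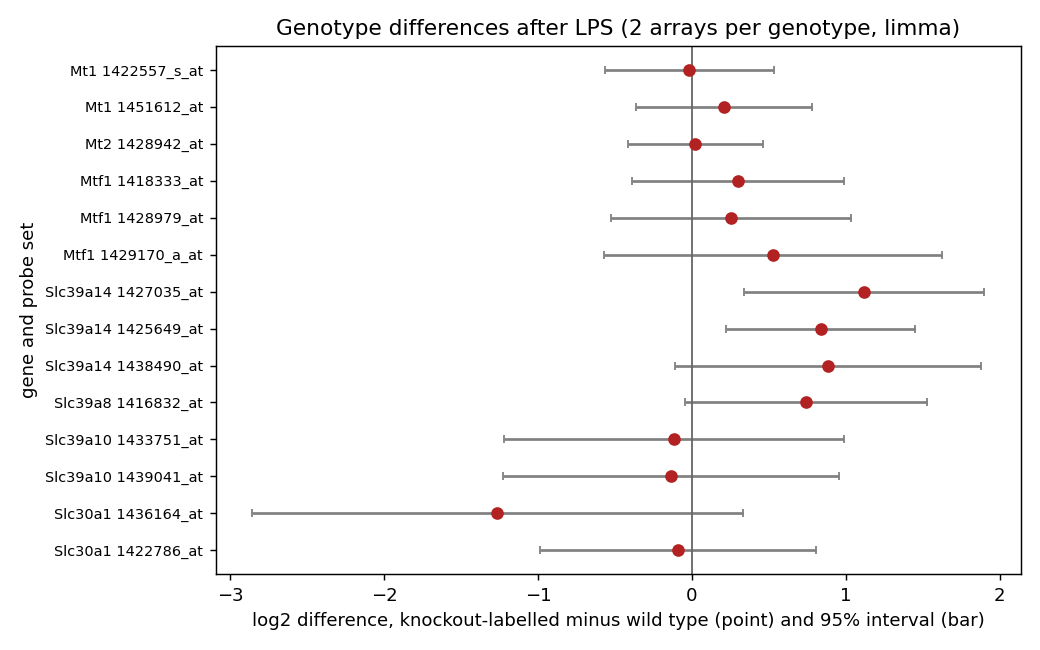
Log2 difference, knockout-labelled minus wild type, for the 14 member probe sets tested (points) with the 95% interval from limma (bars), 2 arrays per genotype. The intervals of Slc39a14 on 1427035_at (0.34 to 1.90) and 1425649_at (0.22 to 1.45) exclude 0 before adjustment, and those of Mt1 and Mt2 are centred near 0.

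**Figure D4:**
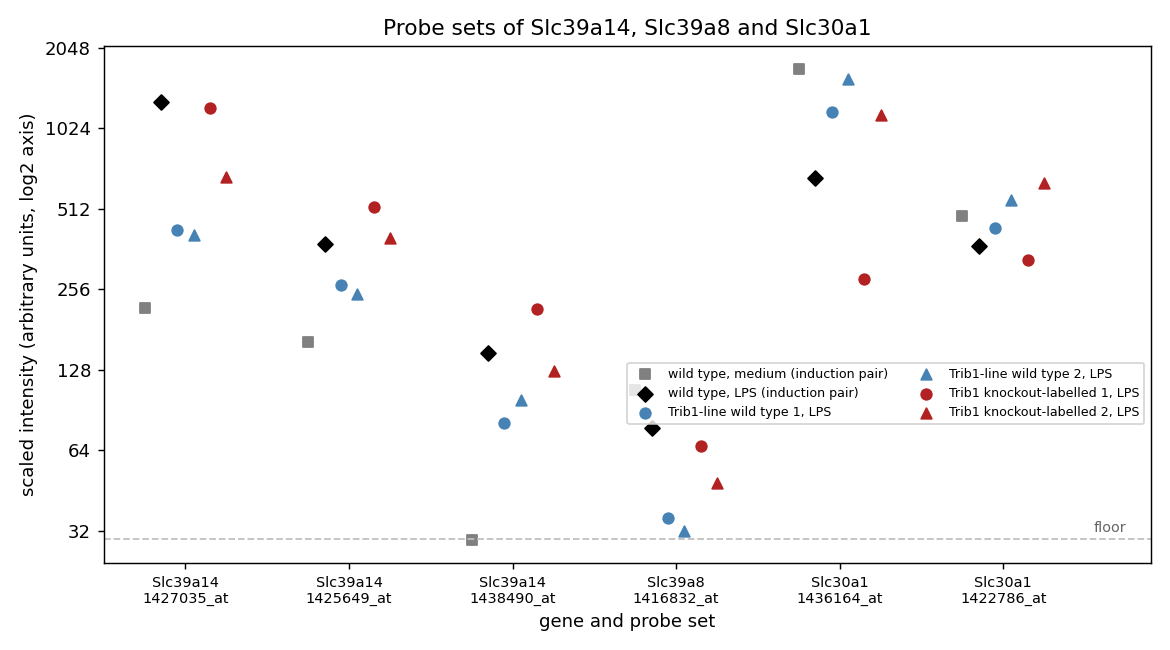
Scaled intensity (log2 axis, arbitrary units) on each array for the probe sets of Slc39a14, Slc39a8 and Slc30a1 that exceed the floor on 5 or more arrays; each symbol is 1 array and the dashed line is the floor. Slc39a14 is lowest in medium on all 3 sets, and Slc30a1 on 1436164_at ranges from 278.5 on knockout-labelled 1 to 1699 in medium.

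Markers of several cell types, macrophages included, were compared between the genotype labels, and limma called 0 in each list, beside 0% of all sets. Their part in the Slc39a14, Slc39a8 and Slc30a1 values was not tested. Of 7 macrophage markers, 4 had both knockout-labelled arrays above both wild-type arrays and 1 below, beside 15.4% and 16.3% of all sets. Itgam measured 1441 and 1555 on wild-type and 2256 and 2411 on knockout-labelled arrays (limma adjusted p = 0.899). Cd14 measured 13871 and 14874 against 23075 and 19999 (limma adjusted p = 0.950). Adgre1 (log2 0.40) and Cd68 (log2 0.06) lay higher by less. Mertk went the other way, at 8578 and 9271 on wild-type and 8443 and 8025 on knockout-labelled arrays. Csf1r (log2 0.05) and Lyz2 (log2 -0.06) overlapped between the labels. The summed level of 6 neutrophil markers went from 2188 and 1772 with wild type to 2819 and 2358 with knockout labels, most of it from Csf3r. For 2 of the 5 tested, Csf3r and Camp, both knockout-labelled arrays lay above both wild-type arrays, beside 15.4% of all sets. Camp, a granule peptide gene of neutrophils, measured 11.0 and 7.0 on wild type, under the floor, and 219.9 and 66.9 on knockout-labelled arrays. Camp passed the filter through its knockout-labelled arrays alone, so its place among the 2 is fixed by the filter. Cxcr2 was above the floor only on knockout-labelled 1 among the Trib1-line arrays (32.6), with 16.7 on knockout-labelled 2 and 13.8 and 16.8 on wild type. Elane, Mpo and Ngp overlapped between the labels. Ngp measured 99.9 and 80.0 on wild-type and 219.4 and 68.7 on knockout-labelled arrays. The sum of 5 mast cell markers was 636.1 and 948.6 on wild-type and 180.4 and 247.4 on knockout-labelled arrays, and that of 4 B cell markers 473.5 and 583.8 against 252.3 and 372.0. The mast cell protease gene Cma1 measured 175.4 and 286.6 on wild-type and 11.5 and 58.3 on knockout-labelled arrays (limma adjusted p = 0.822, or 0.0455 with the replicate block). Cpa3 and Tpsb2 were also lower on both knockout-labelled arrays, while Mcpt4 and Kit overlapped. Kit measured 13.7 and 70.5 on wild-type and 64.3 and 31.7 on knockout-labelled arrays. The sum of 7 mesothelial and stromal markers was 636.6 and 623.1 against 868.3 and 2240, mainly Col1a2 and Col1a1. That of 5 T and NK cell markers was 144.6 and 132.4 against 128.8 and 135.1. In the induction pair the sums in medium and after LPS were 1368 and 2440 for neutrophil, 1268 and 2319 for B cell, 1099 and 1344 for mast cell, 124.0 and 294.3 for T and NK cell and 415.2 and 277.3 for mesothelial and stromal markers. Fewer cells of a type and less RNA per cell cannot be told apart in such samples.

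Of 22 other genes of zinc transport or the metallothionein family, with 31 probe sets, 0 sets passed the 4-fold rule (23 measured) or the genotype test by limma (24 tested, 0 at an unadjusted p under 0.05). Over all sets, 0.986% were induced and 0.598% repressed at 4-fold, and 0% were called between genotypes. At an unadjusted p under 0.05, 2.28% were higher and 2.71% lower. Beside such shares, 0 of so few sets does not set these genes apart. Counting every probe set of these genes was chosen after the data were seen. The values that follow are those of 1 set per gene, the one of highest mean intensity. Of 11 further importer genes (ZIP family), 10 were measured in the induction pair with a median log2 ratio of -0.26 and 0 past 4-fold. All 10 tested between genotypes missed the threshold, with a median log2 difference of 0.10. The smallest genotype p was that of Slc39a2, at 178.3 and 389.7 on wild-type and 59.2 and 160.9 on knockout-labelled arrays (log2 -1.43, SE 0.61; limma adjusted p = 0.999). Slc39a2 measured 32.3 in medium and 57.3 after LPS in the induction pair, so it was higher on all Trib1-line arrays than on either of these. Of 9 further exporter genes (ZnT family), 7 were measured with a median log2 ratio of 0.17 after LPS and 0 past 4-fold. Of the 7 exporter genes tested between genotypes (median log2 difference -0.01), the smallest p was that of Slc30a4 (log2 0.21, SE 0.32; limma adjusted p = 0.999). Slc30a6, which encodes a ZnT of the secretory pathway, measured 539.0 in medium and 1073 after LPS (1.99-fold) and 963.8 to 1299 on the Trib1-line arrays. Slc30a6 is named because of these values and not by the rule for names. Mt3, a metallothionein best known from brain, measured 130.3 in medium and 158.6 after LPS, 82.5 and 77.0 on wild-type and 60.4 and 21.9 on knockout-labelled arrays (log2 -0.91, SE 0.44; limma adjusted p = 0.999). Mt4 was above the floor on 1 array.

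Metallothioneins also bind copper, and 8 copper handling genes were all measured. Of these, 0 passed 4-fold, beside 0.986% of all sets higher and 0.598% lower. Their median log2 ratio was 0.11 after LPS and 0.17 between genotypes. Among the leading sets the smallest genotype p was that of Slc31a1, the copper importer, at 2635 and 2173 on wild-type and 3161 and 3048 on knockout-labelled arrays (log2 0.38, SE 0.18; limma adjusted p = 0.999). Over every probe set of the 8 genes, limma called 0 of 16 tested, beside 0% of all sets. At an unadjusted p under 0.05, 1 of the 16 passed, beside 2.28% of all sets higher and 2.71% lower. Atp7a, the copper-exporting ATPase, measured 2200 in medium and 648.8 after LPS (3.39-fold lower) and 374.8 to 800.6 on the Trib1-line arrays. Cox17, a copper chaperone of mitochondria, measured 2304 in medium, 4576 after LPS and 5807 to 7779 on the Trib1-line arrays. Atp7a and Cox17 too were picked once their values were known. The calgranulins S100a8 and S100a9 together form calprotectin, which withholds zinc from microbes. S100a9 was under the floor in medium (14.1), measured 77.6 after LPS, was again under it with both Trib1-line wild types (11.5 and 8.1) and reached 6906 and 205.6 with knockout labels. Its log2 difference between genotypes was at least 5.32, counted from the floor, and it passed the filter through the knockout-labelled arrays alone, so no test is given for it. S100a8 measured 605.0 in medium and 857.0 after LPS (1.42-fold), 1251 and 1238 on wild-type and 8853 and 7314 on knockout-labelled arrays. S100a8 did not pass the genotype test (log2 2.69, SE 0.17; limma adjusted p = 0.216), and with the array number as a replicate block it did (limma adjusted p = 0.00368).

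The genes whose profile over the 6 arrays was most like that of a member were found by the root mean square difference of log2 values centred on each gene's mean, among 10443 other genes above the floor on all 6 arrays. Nearest to Mt2 was Socs3, a feedback inhibitor of cytokine signalling, with a root mean square difference of 0.106. Socs3 measured 6764 in medium, 15896 after LPS, 9498 and 11477 on wild-type and 13073 and 11357 on knockout-labelled arrays. Pola2 (0.121), Trpm4 (0.129), Tfap2a (0.132) and Fas (0.138) followed. Nearest to Mt1 were Mdm2 (0.132), Ano6 (0.165), Vezf1 (0.191), Traf6 (0.220) and Nrg2 (0.226). Mt2 came at rank 884 for Mt1 (0.460), so the neighbouring metallothionein genes were not each other's nearest profile. Nearest to Slc39a14 were AA467197 (0.206), Dtx2 (0.227), Il10 (0.313), Dusp16 (0.332) and Pde4b (0.339). Il10, an anti-inflammatory cytokine gene, measured 38.9 in medium, 185.7 after LPS, 56.6 and 53.6 on wild-type and 224.8 and 65.3 on knockout-labelled arrays. Mt2 stood at rank 92 for Slc39a14 (0.600) and Slc30a1 at rank 10376 (1.73). These distances describe 6 arrays of 4 groups and carry no test.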

How the data were processed

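The authors deposited linear intensity values per probe set for 6 arrays, computed with MAS5 per the submitters' processing notes; its version and target are not given in the sources used here. Of 45101 probe sets 64 controls were left out. Gene names came from the platform annotation (34945 probe sets with 1 gene, 932 with several, 9160 with none), and RefSeq held all 7 members.

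Arrays were scaled to a common 2% trimmed mean of 233.9, floored at the pooled 40th percentile and taken to log2. LPS and medium were compared by ratio, without a test. For genotypes a two-sided limma test was used (version 3.58.1, R 4.3.3; lmFit, then eBayes with trend, on 2 residual and 3.68 prior degrees of freedom). Benjamini-Hochberg adjustment covered every probe set exceeding the floor on 2 or more of the 4 arrays. The number of arrays limits precision. The fit was tested on simulated data. All 7 members were named with every probe set. From each other list, genes past a threshold or, failing that, the gene of smallest genotype p was named, together with the 5 profiles nearest Mt1, Mt2 and Slc39a14. Other genes named are said to be chosen later, except markers and sex-linked genes, which serve as checks. The members and lists were chosen with earlier results of these data known. Figures used Python 3.11.15 and matplotlib 3.10.9.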

Additional observations from a re-analysis of the deposited data

How the results depend on the processing

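The 2 member probe sets past 4-fold after LPS remained 2 with values as deposited, quantile normalization and a floor at the 25th percentile. They were 1 with a floor at the 60th percentile and 1 with log2 of the value plus 16, 0 with either wild-type Trib1-line array in place of the LPS array, 7 at 2-fold, 0 at 8-fold and 0 by limma of medium against 3 wild-type LPS arrays. Between genotypes 0 member sets were called in all alternatives except leaving out 1 array, which gave 0 to 1 (Slc30a1 without knockout-labelled 2), where the array left alone is assumed to vary like the others. Over all probe sets, leaving out 1 array gave 5 to 68 calls. With the number in the labels as a replicate block, limma called 116 of all sets and 0 member sets (Slc39a14 on 1427035_at had an adjusted p = 0.102). Among the other lists the block changed the call of S100a8 (adjusted p = 0.00368) and of the mast cell gene Cma1 (0.0455), and of no other probe set of a listed gene. Nothing in the labels states that equal numbers mark paired arrays. Deviations of same-numbered arrays correlated at 0.347 across probe sets.

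Log2 differences that changed sign belonged to Mt1, Mt2, Slc39a10 and the second Slc30a1 set. Leaving out 1 array gave -0.28 to 0.25 for Mt1 on 1422557_s_at (0.048 without wild type 1), -0.11 to 0.16 for Mt2 (-0.013 without wild type 1), -0.67 to 0.44 for Slc39a10 on 1433751_at, -0.55 to 0.28 on 1439041_at and -0.57 to 0.39 for Slc30a1 on 1422786_at. Mt1 was 0.052 with values as deposited. With the LPS array as an added wild type, Mt1 on 1422557_s_at moved to -0.49 with its sign kept, Mt2 was -0.16, Slc39a10 on 1439041_at 0.071 and Slc30a1 on 1422786_at 0.041. The cause was not tested. The sets of Slc39a14, Mtf1 and Slc39a8 tested kept their direction in each alternative in which they were tested. Signal near the floor limits Slc39a8 and the second Mt1 set.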
